A study of Mus musculus with 6 samples.

Results

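The 39 genes described here encode PPARA, the main nuclear receptor for fatty acids in hepatocytes, and the proteins that take up, activate and oxidise fatty acids and turn the products into ketone bodies. They were chosen by name from the liver expression table, 39 of its 24341 rows, with earlier results of these data known. Counts set beside all tested genes therefore describe the set and do not test it. All 39 were found in the table. They fall into 3 regulators, 4 genes of uptake and activation, 4 of the carnitine shuttle, 11 of mitochondrial beta-oxidation, 3 of electron transfer, 10 of peroxisomes, 2 of aldehyde and pantetheine handling and 2 of ketone bodies.

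Poly(A) RNA was sequenced from 6 mouse liver samples on a C57BL/6 background, all from mice kept on regular chow. The 3 knockout livers carried Prkciflox/flox with AlbCre, a Cre recombinase driven by the albumin promoter, which is active mainly in hepatocytes, so that most other liver cells keep intact alleles. The 3 control livers carried Prkciflox/flox without Cre. Prkci encodes protein kinase C lambda/iota, an atypical kinase of cell polarity complexes. The sample labels gave an age of 30 weeks for both groups, and the text on the design gave 28 weeks. The labels number the samples 1 to 3 within each group but do not say that each came from its own mouse, so a p-value rests on how these samples vary, which may be technical.

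Fatty acids enter the hepatocyte with the help of CD36 and FATP2 (Slc27a2), are bound by FABP1 and are activated to acyl-CoA. The carnitine shuttle carries long chains into mitochondria, where beta-oxidation shortens them and passes electrons through ETF to the respiratory chain, while peroxisomes shorten very long, branched and dicarboxylic chains. During fasting the liver turns much of the resulting acetyl-CoA into ketone bodies, and PPARA, bound to DNA with RXR and activated by fatty acids, raises the transcription of many of these genes.

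All values are FPKM, fragments per kilobase of transcript at a common library total, so levels can be set side by side between genes. Values of single livers follow the replicate numbers 1, 2 and 3, and each mean is followed by its SD (n = 3 livers). Differences are knockout minus control on the log2(FPKM + 1) scale, where differences of low genes come out too small, with their SE from limma. They were tested with limma across the 10963 genes that reached 1 FPKM in at least 3 livers, with Benjamini-Hochberg adjustment and a threshold of 0.05. All 39 genes passed this filter. Exact two-sided permutation of 3 livers against 3 has 0.1 as its smallest p, so no such test was run.

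Prkci itself stood at 5.70, 5.26 and 4.42 FPKM in the knockout livers, against 5.57, 3.65 and 4.44 FPKM in the controls, a log2 difference of 0.15 (SE 0.17, limma adjusted p = 0.813). Its level was thus not lower, and sample quality weights gave -0.02. The value covers the whole gene and the sources used here do not give the deleted part, so it does not check the genotype. Knockout and control therefore name the labels of the livers. The read totals, estimated from steps between low values, were 15200000 to 17630000 in the knockout livers and 14780000 to 16560000 in the controls. Knockout liver 1 stood apart from the other knockout livers: its summed neutrophil markers (9 genes) reached 317 FPKM, against 8.81 and 12.6 FPKM in knockout livers 2 and 3 and 5.33 to 30.2 FPKM in the controls. Where it decides a value of the 39 genes, the value without it is given too.

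In 2 of the 3 knockout livers nearly the whole set was high. Knockout livers 2 and 3 both stood above every control for 34 of the 39 genes, where 18.3% of all tested genes did so. Knockout liver 1 stood above every control for only Pdk4 and Cd36, 2 of 39 (44.7% of all tested genes), and below every control for 21 (14.5% of all genes). Taken singly, knockout liver 2 exceeded every control for 34 genes (27% of all tested genes) and knockout liver 3 for 34 (25.6%).

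Against the control mean, the middle gene of the set stood at 0.805-fold in knockout liver 1, 2.01-fold in knockout liver 2 and 2.17-fold in knockout liver 3. At least 2-fold was reached by 1, 20 and 22 genes in these livers. The ranges over the set were 0.430 to 2.16-fold, 0.610 to 10.6-fold and 0.834 to 9.78-fold.

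**Figure D1:**
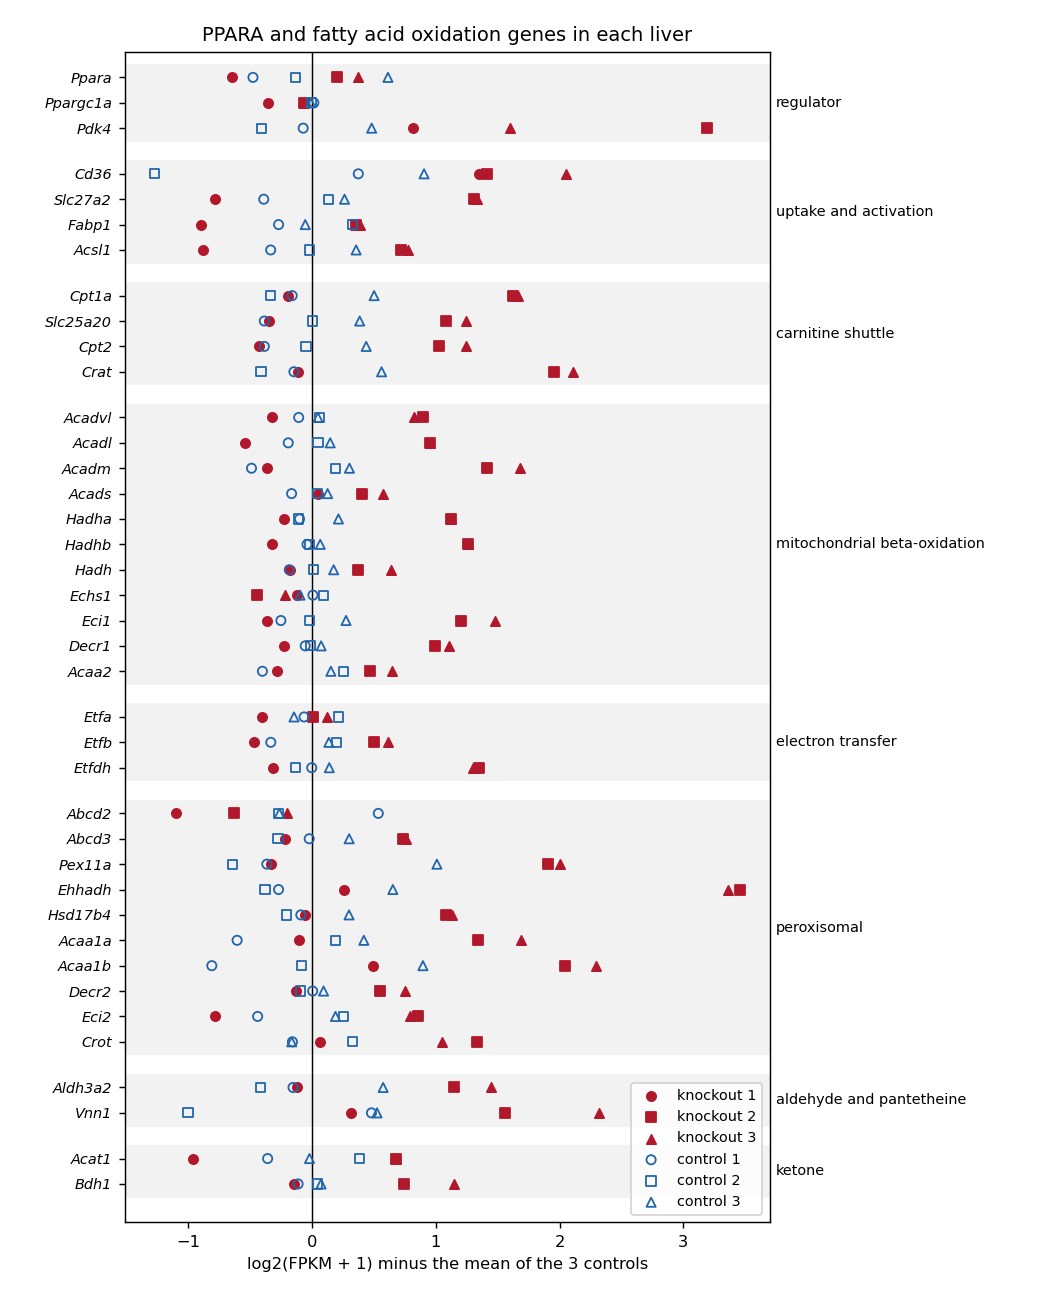
Each row is a gene and each point a liver, drawn as log2(FPKM + 1) minus the mean of the 3 controls, with knockout livers filled red and control livers open blue, and a symbol can hide another of the same value. For 34 of the 39 genes the points of knockout livers 2 and 3 lie to the right of every control, while knockout liver 1 lies to the right of every control for Pdk4 and Cd36 alone.

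With the 3 knockout livers taken as 1 group, no gene of the set passed the test. The adjusted p-values ran from 0.425 to 0.989 (limma with Benjamini-Hochberg adjustment), and 3 of all 10963 genes passed, or 0.0274%. At an unadjusted p under 0.05, 4 genes were higher (Pdk4, Cd36, Ehhadh and Acaa1b; 6.34% of all tested genes) and 0 were lower (3.59%). The median log2 difference was 0.62 over the set and 0.04 over all tested genes. The mean was higher in the knockout group for 33 genes and lower for 6, where 56.1% of all tested genes had the higher mean. The groups did not overlap for 2 genes that were higher, Pdk4 and Cd36 (10.7% of all tested genes), and for 2 that were lower, Ppargc1a and Echs1 (5.56%).

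These counts turned on single livers. Without knockout liver 1, limma called 7 genes higher at an adjusted p under 0.05 (0.682% of all tested genes), namely Crat, Hadha, Hadhb, Eci1, Decr1, Etfdh and Ehhadh, and 32 had an unadjusted p under 0.05 (8.53%). The 34 genes counted above then did not overlap with the controls, and the median log2 difference was 1.11. Knockout liver 1 was the lowest of all 6 livers for 20 of the 39 genes, so leaving it out raises most differences. Calls made without it are therefore no independent evidence. Without knockout liver 2 or knockout liver 3, 0 of the 39 genes passed, the smallest limma adjusted p being 0.796 and 0.783. The number higher at an unadjusted p under 0.05 was 2 without knockout liver 2 (4.02% of all tested genes), 1 without knockout liver 3 (4.13%), 2 without control liver 1 (4.78%) and 1 without control liver 2 (4.44%). Without knockout liver 3 the median was 0.30, and without control liver 3 the number of higher genes with no overlap was 9 (15.3% of all tested genes).

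Sample quality weights, which let limma give less weight to a liver that departs from its group, called 15 genes higher (2.84% of all tested genes). Livers that share a replicate number departed from their group means together, so the number was also used as a block. With it, 13 genes were at an unadjusted p under 0.05 (10.1%) and 0 passed the adjusted threshold, the smallest limma adjusted p being 0.149. Within the pairs of the same number, the knockout liver was higher than its control for 15, 35 and 36 of the 39 genes. All tested genes gave 61.8, 52.2 and 50% for the same pairs.

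**Figure D2:**
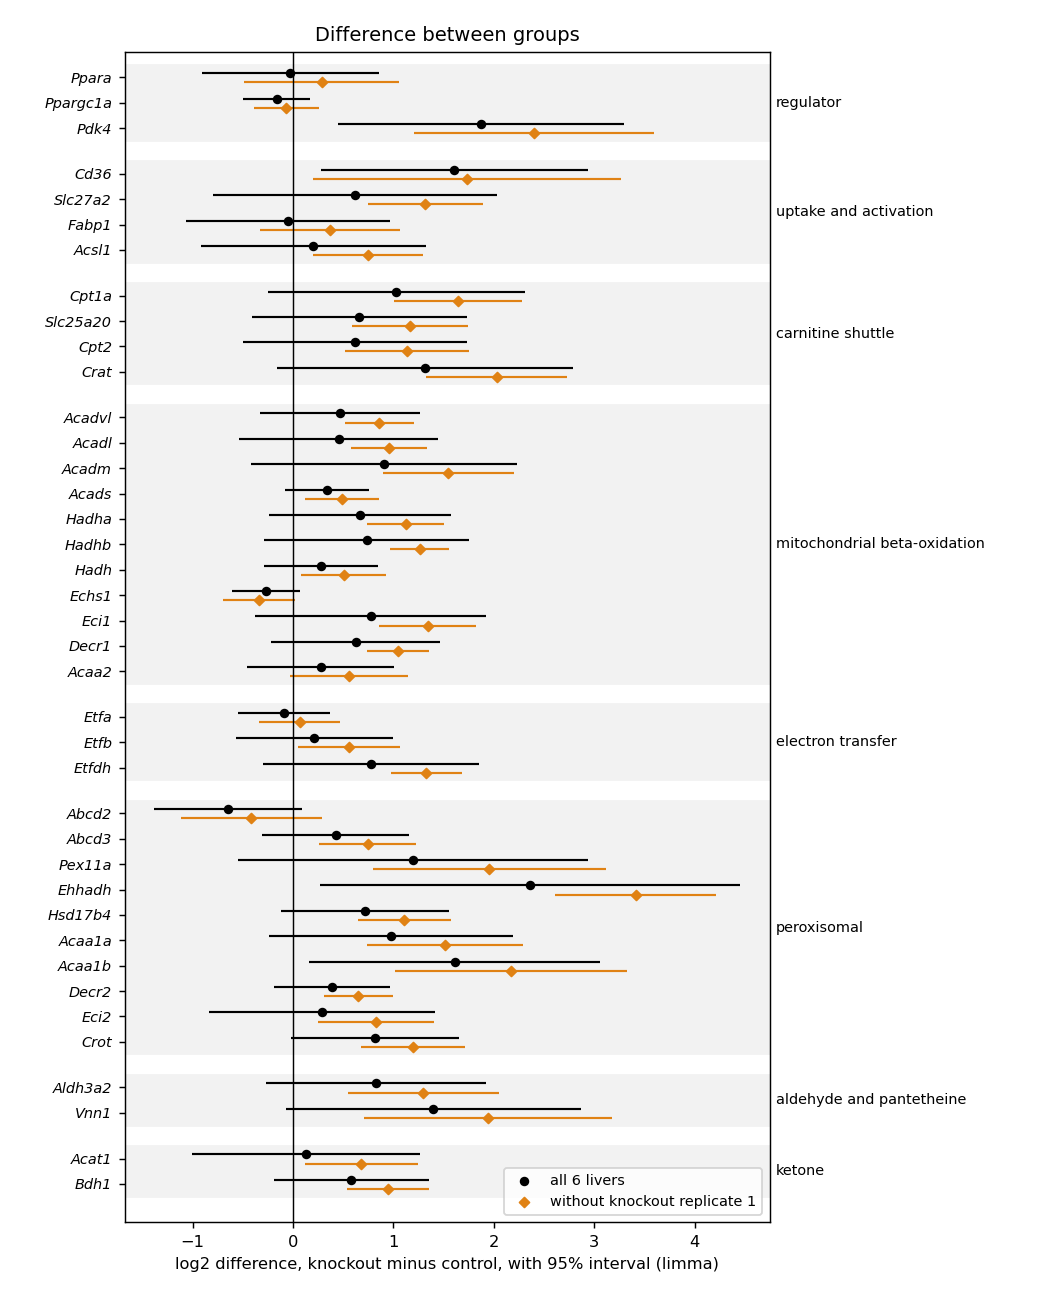
Log2 difference of each gene, knockout minus control, with its 95% interval from limma, over all 6 livers (black circles) and without knockout replicate 1 (orange diamonds). Over all 6 livers the intervals of 35 genes include 0, and without knockout replicate 1 those of 7 do.

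The set also varied within the knockout group. The coefficient of variation (SD over mean) was larger in the knockout livers than in the controls for 34 of the 39 genes, and for 56.4% of all tested genes. Its median over the set was 47.6% in knockout livers and 22.4% in controls, against 17.2 and 15.7% over all genes in the same order. The median SE of the log2 difference was 0.43 over the set and 0.17 over all tested genes. Knockout liver 1 was the lowest of all 6 livers for 20 of the 39 genes (8.43% of all tested genes), and knockout liver 3 the highest for 27 (8.8%). Among the controls, liver 3 was the highest for 28 genes of the set, against 23.7% of all tested genes.

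PPARA binds DNA at a direct repeat of the core AGGTCA with 1 base between the copies. Promoters from RefSeq (GRCm38.p6, 250 bases before to 50 bases after the start) were matched by symbol for 32 of the 39 genes. This core on either strand was in 7 of these 32 (21.9%: Acadm, Acadvl, Cd36, Cpt1a, Echs1, Fabp1 and Slc27a2), and in 18.1% of the 27025 genes with a promoter. The exact repeat on either strand was in 0 of 32 and in 0.0481% of all genes. Allowing 1 of the 12 letters to differ found Fabp1 alone (0.644% of all genes), and allowing 2 found 5 genes, 15.6% against 4.4% of all genes. This looser search was added after the exact one had found none. An exact core inside such a repeat counts in both searches. The 4 matches upstream of a start are shown on the strand of the gene, with the repeat in capitals, because these letters are closest to the receptor's known site.
Fabp1: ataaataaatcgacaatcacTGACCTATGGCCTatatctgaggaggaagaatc
Cd36: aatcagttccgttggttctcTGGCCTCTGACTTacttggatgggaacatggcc
Echs1: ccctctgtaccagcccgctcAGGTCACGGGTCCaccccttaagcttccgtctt
Etfa: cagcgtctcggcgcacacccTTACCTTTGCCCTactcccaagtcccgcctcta
They lie at chr6:71199792-71199844 (plus strand), chr5:17835927-17835979 (minus), chr7:140116472-140116524 (minus) and chr9:55512288-55512340 (minus). Their first capital is 67, 63, 83 and 77 bases before the RefSeq start. For Fabp1, Echs1 and Cd36 that start is not the end of the gene as GENCODE gives it, and for Cd36 it lies well inside the gene, which has several starts. The match reads on the opposite strand to the gene in Fabp1, Cd36 and Etfa and on the same strand in Echs1. The fifth match, in Slc25a20, begins 7 bases after its start. These are matches of letters only. The 4 genes shown did not share a pattern of level: all knockout livers were above all controls for Cd36 and below them for Echs1, and the groups overlapped for Etfa and Fabp1.

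Of the regulators, Ppara, the gene of the receptor (chromosome 15, 85734983 to 85802819, plus strand), stood at 38.9, 70.9 and 80.0 FPKM in the knockout livers, against 43.9, 56.0 and 94.7 FPKM in the controls. The groups overlapped over nearly their whole range, with knockout liver 1 lowest and control liver 3 highest. The means were 63.3 ± 21.6 FPKM in knockout livers and 64.9 ± 26.5 FPKM in controls, a log2 difference of -0.03 (SE 0.37, 95% interval -0.91 to 0.86, limma adjusted p = 0.989). The sign turned to 0.29 without knockout liver 1, to 0.28 without control liver 3 and to 0.19 with sample quality weights.

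Ppargc1a, the coactivator PGC-1alpha, was low at 1.88, 2.52 and 2.52 FPKM in the knockout livers, against 2.72, 2.68 and 2.66 FPKM in the controls. All 3 knockout livers were below all 3 controls, by little in knockout livers 2 and 3, and after quantile normalization the groups overlapped. Pdk4 encodes the kinase that shuts pyruvate dehydrogenase when fat is burned (chromosome 6, 5483351 to 5496309, minus strand). It stood at 8.20, 46.8 and 14.8 FPKM in the knockout livers, against 3.98, 2.94 and 6.30 FPKM in the controls. Every knockout liver was above every control, and knockout liver 2 was far above the other knockout livers. The groups differed by 1.87 on the log2 scale (SE 0.59, 95% interval 0.45 to 3.29, limma adjusted p = 0.425), and by 2.39 without knockout liver 1 (limma adjusted p = 0.0844).

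**Figure D3:**
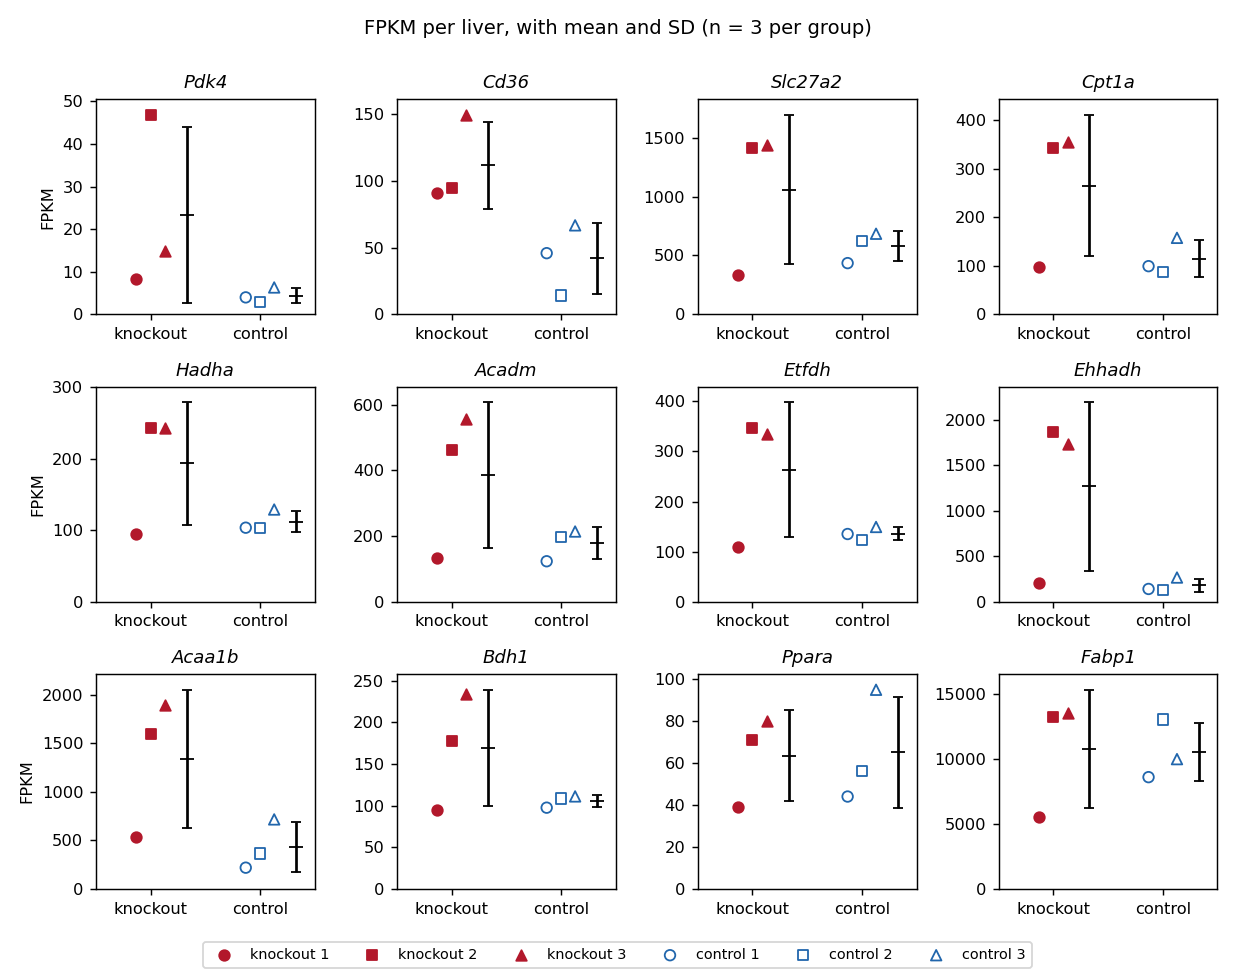
FPKM of 12 genes in each knockout liver (filled red) and each control liver (open blue), with the mean and SD of each group (n = 3) in black and each axis starting at 0. Cd36 and Pdk4 separate the groups, Slc27a2, Cpt1a, Hadha, Etfdh and Ehhadh have knockout livers 2 and 3 high with knockout liver 1 among or below the controls, and Ppara and Fabp1 overlap.

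Among the genes of uptake and activation, Cd36, the fatty acid translocase of the cell surface, stood at 91.1, 95.1 and 149 FPKM in the knockout livers, against 45.9, 13.9 and 66.7 FPKM in the controls. All 3 knockout livers were above all controls, and control liver 2 was far below the other controls. The means were 112 ± 32.6 FPKM in knockout livers and 42.2 ± 26.6 FPKM in controls, and the log2 difference was 1.60 (SE 0.55, limma adjusted p = 0.452), or 1.73 without knockout liver 1 (limma adjusted p = 0.230). Macrophages and endothelial cells also express Cd36. The summed macrophage markers (13 genes) were 1120, 329 and 533 FPKM in the knockout livers, against 722, 164 and 653 FPKM in the controls. The summed endothelial markers (11 genes) were 222, 118 and 122 FPKM in the knockout livers, against 233, 73.7 and 212 FPKM in the controls. Control liver 2 was lowest in both sums and in Cd36. Their part in the Cd36 level was not tested.

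Slc27a2, the very long chain acyl-CoA synthetase and transporter FATP2, stood at 329.9, 1414 and 1436 FPKM in the knockout livers, against 435, 625 and 685 FPKM in the controls. Fabp1, the fatty acid binding protein that fills the hepatocyte cytosol (chromosome 6, 71199827 to 71205023, plus strand), was the most abundant gene of the set at 5568, 13289 and 13576 FPKM in the knockout livers, against 8617, 13045 and 10006 FPKM in the controls. Acsl1, the main long chain acyl-CoA synthetase of liver, stood at 157, 475 and 494 FPKM in the knockout livers, against 229, 285 and 369.7 FPKM in the controls. In all 3 genes knockout liver 1 was the lowest liver and knockout livers 2 and 3 lay above every control, but for Fabp1 only just above control liver 2.

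The Fabp1 means were 10811 ± 4543 FPKM in knockout livers and 10556 ± 2264 FPKM in controls, a log2 difference of -0.05 (SE 0.42, limma adjusted p = 0.978). Its sign turned to 0.37 without knockout liver 1, to 0.11 without control liver 2 and to 0.40 with sample quality weights. For Acsl1 the log2 difference was 0.20 (0.74 without knockout liver 1), and it turned to -0.05 without knockout liver 2 and to -0.08 without knockout liver 3.

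The genes of the carnitine shuttle were split between knockout livers. Cpt1a, the outer membrane carnitine palmitoyltransferase that sets the rate of entry of long chains, stood at 97.0, 344 and 355 FPKM in the knockout livers, against 99.3, 87.7 and 158 FPKM in the controls. There knockout livers 2 and 3 were more than 2-fold above the highest control, and knockout liver 1 lay among the controls. The means were 265 ± 146 FPKM in knockout livers and 115 ± 37.5 FPKM in controls, a log2 difference of 1.03 (SE 0.53, limma adjusted p = 0.574). Without knockout liver 1 the log2 difference was 1.64 (limma adjusted p = 0.0509).

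Slc25a20, the carrier that exchanges acylcarnitine for carnitine across the inner membrane, stood at 54.1, 147 and 165 FPKM in the knockout livers, against 52.6, 69.2 and 90.5 FPKM in the controls. Cpt2, which returns the chain to CoA inside mitochondria, stood at 52.7, 147 and 171 FPKM in the knockout livers, against 54.5, 69.0 and 97.2 FPKM in the controls. Crat, carnitine acetyltransferase, stood at 12.5, 55.9 and 62.2 FPKM in the knockout livers, against 12.2, 10.02 and 20.7 FPKM in the controls. All 4 shuttle genes had knockout livers 2 and 3 above every control, and Crat was the furthest apart, at 3.90 and 4.34 times the control mean. Its log2 difference was 1.31 over all livers (SE 0.61, limma adjusted p = 0.538) and 2.03 without knockout liver 1, where it passed the test (limma adjusted p = 0.0410). Crat overlaps exons of Dolpp1 and Gm16323 on the opposite strand, and the sources used here do not say whether the authors' counting used strand.

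Mitochondrial beta-oxidation begins with the acyl-CoA dehydrogenases, one for each range of chain length. Acadvl, for very long chains, stood at 169, 394 and 376 FPKM in the knockout livers, against 197, 221 and 219 FPKM in the controls. Acadl, for long chains, stood at 104, 293 and 294 FPKM in the knockout livers, against 132, 156 and 167 FPKM in the controls. In both genes knockout liver 1 was below every control and knockout livers 2 and 3 were well above. Acadm, for medium chains, stood at 134, 463 and 556 FPKM in the knockout livers, against 123, 197 and 213 FPKM in the controls. Acads, for short chains, stood at 101, 129 and 145 FPKM in the knockout livers, against 86.7, 100.2 and 106 FPKM in the controls. For these 2 genes knockout liver 1 lay among the controls, and knockout livers 2 and 3 stood above them, by more for Acadm than for Acads. The log2 difference was 0.91 for Acadm (SE 0.55, limma adjusted p = 0.623), the highest of the mitochondrial oxidation genes, and 0.34 for Acads. When knockout liver 1 was left out it was 1.55 for Acadm (limma adjusted p = 0.0587) and 0.49 for Acads.

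The middle and last steps on long chains are made by the trifunctional protein, whose subunits Hadha and Hadhb lie head to head on chromosome 5. Hadha stood at 94.6, 242 and 243 FPKM in the knockout livers, against 103, 103 and 129 FPKM in the controls. Hadhb stood at 45.6, 139 and 139 FPKM in the knockout livers, against 55.7, 56.4 and 60.0 FPKM in the controls. Both subunits were lowest in knockout liver 1 and highest in knockout livers 2 and 3. The ratio of Hadha to Hadhb was 2.08, 1.75 and 1.75 in the knockout livers, against 1.86, 1.82 and 2.15 in the controls. Knockout livers 2 and 3 were thus slightly below every control in this ratio. Without knockout liver 1 both subunits passed the test, at log2 differences of 1.12 for Hadha (limma adjusted p = 0.0407) and 1.26 for Hadhb (limma adjusted p = 0.0195). The level of Hadhb is uncertain, since 57.2% of the 75-base windows of its transcript also occur in the pseudogenes Gm13910 and Gm9108.

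The short chain steps were less uniform. Hadh, the short chain 3-hydroxyacyl-CoA dehydrogenase, stood at 202, 297 and 356 FPKM in the knockout livers, against 201, 231 and 258 FPKM in the controls. Echs1, the short chain enoyl-CoA hydratase, stood at 202, 161 and 188 FPKM in the knockout livers, against 221, 235 and 206 FPKM in the controls. For Hadh knockout livers 2 and 3 were above every control. Echs1 was the exception of this group: all 3 knockout livers were below all controls, with knockout liver 2 the lowest. Its log2 difference was -0.27, and the groups overlapped after quantile normalization. Echs1 shares exon positions with Paox on the opposite strand.

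Eci1 and Decr1, the isomerase and reductase that prepare unsaturated chains, followed the pattern of the trifunctional protein. Eci1 stood at 95.7, 285 and 345 FPKM in the knockout livers, against 103, 122 and 149 FPKM in the controls. Decr1 stood at 64.4, 152 and 164 FPKM in the knockout livers, against 72.7, 74.8 and 79.6 FPKM in the controls. Knockout liver 1 was lowest of all livers in both, and without it both passed the test at log2 differences of 1.34 (limma adjusted p = 0.0452) and 1.05 (limma adjusted p = 0.0322). Acaa2, the thiolase of the last step, stood at 498, 839 and 949 FPKM in the knockout livers, against 459, 722 and 674 FPKM in the controls. It was the most abundant of the mitochondrial oxidation genes, and knockout livers 2 and 3 were only moderately above the controls. Its log2 difference was 0.28 (SE 0.30, limma adjusted p = 0.809), and 0.56 without knockout liver 1 (limma adjusted p = 0.3003).

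Over the 11 mitochondrial oxidation genes, the median log2 difference was 0.46, and it was 0.95 without knockout liver 1, 0.31 without knockout liver 2 and 0.29 without knockout liver 3. Knockout livers 2 and 3 each exceeded every control for 10 of them, and knockout liver 1 was below every control for 7.

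**Figure D4:**
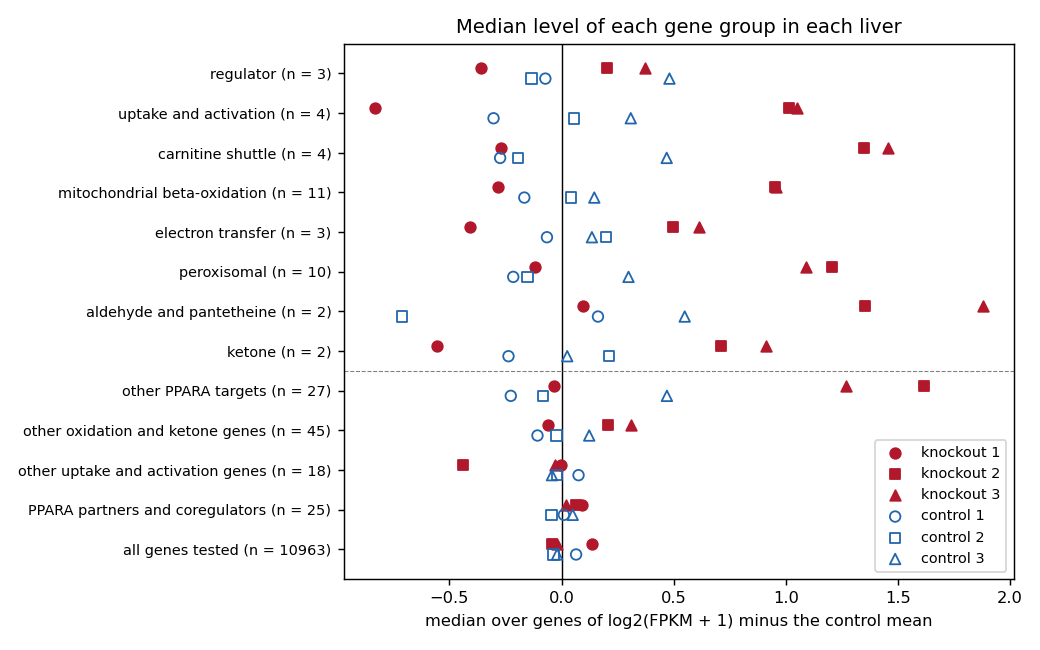
Median over the genes of each group of log2(FPKM + 1) minus the control mean, for each knockout liver (filled red) and each control liver (open blue), with the groups of the 39 genes above the dashed line and other lists and all tested genes below it. In every group of the 39 genes except the regulators, knockout livers 2 and 3 lie to the right of all controls, and the median over all tested genes stays within 0.14 of 0 in every liver.

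Electrons from these dehydrogenases pass through ETF, made of Etfa and Etfb, to the ubiquinone oxidoreductase Etfdh. Etfa stood at 204, 273 and 295 FPKM in the knockout livers, against 259, 314 and 245 FPKM in the controls. Etfb stood at 297, 582 and 629 FPKM in the knockout livers, against 326, 472 and 452 FPKM in the controls. Etfdh stood at 108, 347 and 335 FPKM in the knockout livers, against 135, 123 and 149 FPKM in the controls. The 3 genes differed: Etfa overlapped between groups, Etfb was modestly higher in knockout livers 2 and 3, and Etfdh was more than 2-fold above the highest control there. The log2 difference of Etfdh was 0.78 (SE 0.45, limma adjusted p = 0.611), and without knockout liver 1 it was 1.33 and passed the test (limma adjusted p = 0.0265). For Etfb it was 0.21 (SE 0.32, limma adjusted p = 0.871), and 0.55 without knockout liver 1 (limma adjusted p = 0.244). The ratio of Etfdh to Etfa was 0.530, 1.27 and 1.13 in the knockout livers, against 0.521, 0.392 and 0.609 in the controls. The log2 difference of Etfa was -0.09 and turned to 0.07 without knockout liver 1, 0.01 without control liver 2 and 0.15 with sample quality weights. Etfb shares 66.3% of its 75-base windows with Gm45233 on the same strand, so its level is uncertain.

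Among peroxisomal genes the largest difference of the set was in Ehhadh, the bifunctional hydratase and dehydrogenase (chromosome 16, 21761287 to 21787807, minus strand). It stood at 201, 1862 and 1739 FPKM in the knockout livers, against 139, 129 and 265 FPKM in the controls. This was about an order of magnitude above the control mean in knockout livers 2 and 3, and knockout liver 1 lay within the control range. The log2 difference was 2.36 (SE 0.87, 95% interval 0.27 to 4.45, limma adjusted p = 0.468). Without knockout liver 1 it was 3.41 (SE 0.33, limma adjusted p = 0.0195). Over the 12 alternatives it ran from 1.81 to 3.41, with limma adjusted p-values up to 0.878.

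Hsd17b4, the other bifunctional enzyme of the peroxisome, stood at 179.8, 399 and 412 FPKM in the knockout livers, against 176, 162 and 231 FPKM in the controls. The ratio of Ehhadh to Hsd17b4 was therefore 1.12, 4.67 and 4.22 in the knockout livers, against 0.791, 0.794 and 1.15 in the controls. Both enzymes were high in knockout livers 2 and 3, Ehhadh by much more. Against Hadha, its mitochondrial counterpart, the ratio of Ehhadh was 2.13, 7.69 and 7.16 in the knockout livers and 1.35, 1.26 and 2.06 in the controls.

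The thiolases Acaa1a and Acaa1b close the peroxisomal cycle. Acaa1b (chromosome 9, 119148023 to 119157093, minus strand) stood at 540.5, 1594 and 1894 FPKM in the knockout livers, against 219, 363 and 717 FPKM in the controls. Acaa1a stood at 78.2, 215 and 273 FPKM in the knockout livers, against 55.0, 96.1 and 113 FPKM in the controls. Knockout liver 1 lay among the controls for both genes and knockout livers 2 and 3 above them. The log2 difference of Acaa1b was 1.61 (SE 0.60, limma adjusted p = 0.472), and 2.17 without knockout liver 1 (limma adjusted p = 0.0970). The ratio of Acaa1b to Acaa1a was 6.91, 7.43 and 6.93 in the knockout livers, against 3.99, 3.78 and 6.35 in the controls, and every knockout liver was above every control. The paralogs share 27.3% (Acaa1a) and 28.5% (Acaa1b) of their 75-base windows, so the split of reads between them is uncertain.

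**Figure D5:**
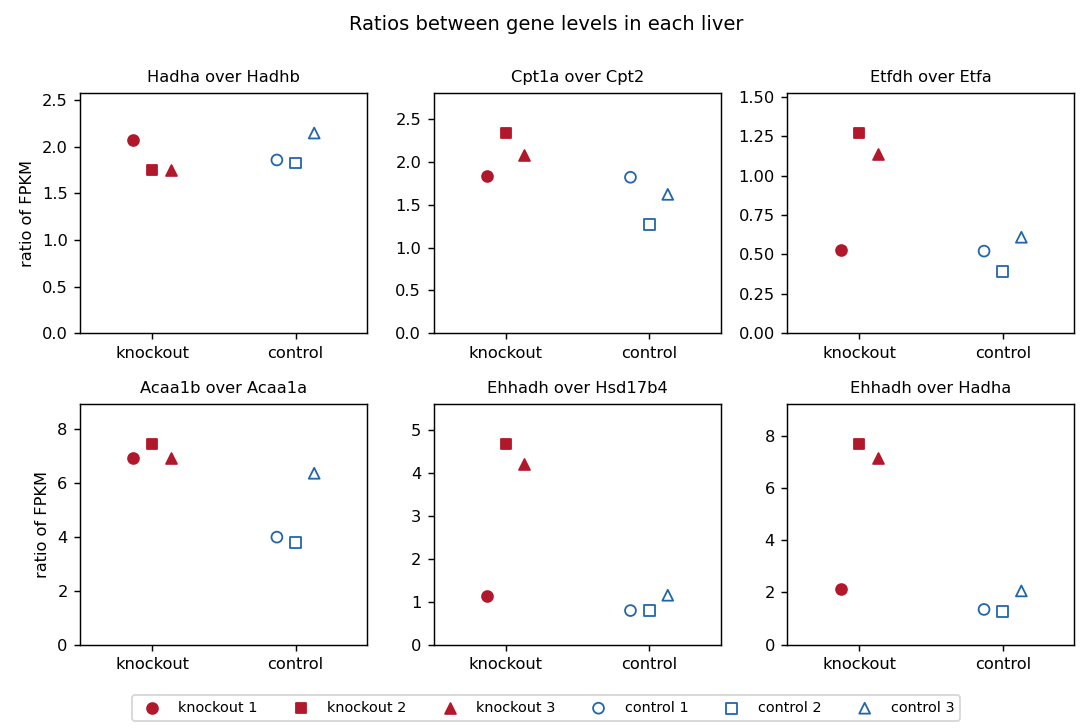
Ratios of FPKM between pairs of genes in each knockout liver (filled red) and each control liver (open blue), with each axis starting at 0. The Hadha to Hadhb ratio lies between 1.75 and 2.15 in all 6 livers and is lowest in knockout livers 2 and 3. The ratios of Ehhadh to Hsd17b4 and to Hadha are far above those of the controls in knockout livers 2 and 3, but not in knockout liver 1.

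The transporters of the peroxisomal membrane differed from each other. Abcd2, which imports very long chains, stood at 12.4, 17.6 and 24.0 FPKM in the knockout livers, against 40.6, 22.9 and 22.9 FPKM in the controls. Abcd3, which imports branched and dicarboxylic chains, stood at 174, 338 and 343 FPKM in the knockout livers, against 199, 167 and 249.5 FPKM in the controls. Knockout livers 1 and 2 were below every control for Abcd2, while knockout livers 2 and 3 were above every control for Abcd3. The log2 difference was -0.64 for Abcd2, the lowest of the set, and 0.42 for Abcd3. Leaving out knockout liver 1 gave -0.42 for Abcd2 and 0.75 for Abcd3. Pex11a, which elongates and divides peroxisomes, stood at 31.9, 154 and 165 FPKM in the knockout livers, against 31.1, 25.5 and 82.1 FPKM in the controls. Its control liver 3 was far above the other controls, though still below knockout livers 2 and 3.

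Decr2, the peroxisomal dienoyl-CoA reductase, stood at 116, 186 and 215 FPKM in the knockout livers, against 127, 119 and 136 FPKM in the controls. Eci2, the peroxisomal isomerase, stood at 74.9, 236 and 226 FPKM in the knockout livers, against 95.5, 155 and 148 FPKM in the controls. Crot, which makes carnitine esters of the shortened chains for export to mitochondria, stood at 267, 644 and 529.9 FPKM in the knockout livers, against 228, 320.0 and 228 FPKM in the controls. All 3 genes had knockout livers 2 and 3 above every control. Over the 10 peroxisomal genes they were both above every control for 9, and the median log2 difference was 0.77 (1.15 without knockout liver 1). Eci2 shares 3.95% of its windows with Eci3, and Crot overlaps Gm27941 on the same strand.

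Aldh3a2 and Vnn1, known targets of the receptor, complete the fatty acid genes. Aldh3a2, the fatty aldehyde dehydrogenase, stood at 167, 405 and 498 FPKM in the knockout livers, against 164, 136 and 272 FPKM in the controls. Vnn1, the pantetheinase that releases a building block of CoA, stood at 41.2, 99.2 and 168 FPKM in the knockout livers, against 46.3, 15.9 and 47.8 FPKM in the controls. In both, knockout livers 2 and 3 were above every control and control liver 2 was the lowest liver. The log2 difference was 0.82 for Aldh3a2 (SE 0.46, limma adjusted p = 0.599). For Vnn1 it was 1.40 (SE 0.61, limma adjusted p = 0.515). With knockout liver 1 left out these were 1.30 for Aldh3a2 (limma adjusted p = 0.112) and 1.94 for Vnn1 (limma adjusted p = 0.134).

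Of the ketone body genes, Acat1, the mitochondrial acetoacetyl-CoA thiolase, stood at 70.8, 223 and 223 FPKM in the knockout livers, against 108, 181 and 137 FPKM in the controls. Bdh1, which turns acetoacetate into beta-hydroxybutyrate, stood at 95.1, 178 and 234 FPKM in the knockout livers, against 97.6, 109 and 111 FPKM in the controls. Knockout liver 1 was the lowest of the 6 livers and knockout livers 2 and 3 the highest in both genes. The log2 difference of Bdh1 was 0.58 (SE 0.32, limma adjusted p = 0.599), and 0.94 without knockout liver 1 (limma adjusted p = 0.0606). For Acat1 it was 0.13 (SE 0.47, limma adjusted p = 0.946), or 0.68 without knockout liver 1, and it turned to -0.14 without knockout liver 2, to -0.14 without knockout liver 3 and to -0.05 without control liver 1. Knockout livers 2 and 3 thus exceeded every control in both ketone genes, in 4 of 4 uptake genes, in 4 of 4 shuttle genes and in 2 of 3 electron transfer genes, but in 1 of 3 regulators.

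Summed, the 39 genes took 2.07, 5.06 and 5.26% of all listed FPKM in the knockout livers, against 2.65, 3.36 and 3.35% in the controls. Alb was listed at 0 in every library, so these are shares of the listed values and not of liver RNA. Fabp1 alone made up 1.07, 2.47 and 2.51% in the knockout livers, against 1.66, 2.26 and 1.92% in the controls. Without it the share was 1.00, 2.59 and 2.75% in the knockout livers, against 0.996, 1.10 and 1.43% in the controls. Knockout livers 2 and 3 thus had the highest shares either way, and knockout liver 1 had the lowest share with Fabp1 and lay just above control liver 1 without it.

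Other genes of the pathway were listed by name for comparison, also with earlier results of these data known. Over all tested genes, 6.34% were higher and 3.59% lower at an unadjusted p under 0.05. Among 27 tested of 31 other known PPARA targets, 7 were higher and 0 lower at an unadjusted p under 0.05, 0 passed the adjusted threshold, and the median log2 difference was 0.82 (1.49 without knockout liver 1). With the replicate block 15 were higher at an unadjusted p under 0.05 (10.1% of all tested genes). Without knockout liver 1, 19 were (8.53%), of which 9 passed the adjusted threshold (0.682%). Without knockout liver 2, and likewise without knockout liver 3, 4 were higher at that unadjusted p (4.02 and 4.13% of all tested genes). Cidec, a lipid droplet protein, stood at 2.44, 58.7 and 27.6 FPKM in the knockout livers, against 0.524, 0.215 and 1.22 FPKM in the controls (log2 difference 3.50, limma adjusted p = 0.386). Fgf21, the fasting hormone of liver, stood at 5.64, 71.2 and 19.4 FPKM in the knockout livers, against 2.76, 1.30 and 2.36 FPKM in the controls (log2 difference 2.80, limma adjusted p = 0.386). In both genes every knockout liver was above every control and knockout liver 2 was highest, as for Pdk4.

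Among 45 tested of 48 other oxidation and ketone genes, 7 were higher and 4 lower at an unadjusted p under 0.05, with a median of 0.17 and 0 past the adjusted threshold. Without knockout liver 1, 16 were higher (8.53% of all tested genes) and 6 lower at that p. Of these, 2 passed the adjusted threshold, all of them higher (0.682%). Leaving out each other liver in turn gave 1 to 5 higher at that p, and 437 to 513 over all tested genes. Cpt1b, the muscle form of the shuttle enzyme, stood at 1.58, 11.9 and 9.15 FPKM in the knockout livers, against 1.10, 1.49 and 1.91 FPKM in the controls (log2 difference 1.49, limma adjusted p = 0.493). Bdh2, a cytosolic dehydrogenase, stood at 9.91, 4.55 and 5.06 FPKM in the knockout livers, against 8.77, 15.2 and 15.9 FPKM in the controls (log2 difference -0.96, limma adjusted p = 0.452). Both departed from the controls mainly in knockout livers 2 and 3, in opposite directions. With the replicate block Bdh2 was no longer at an unadjusted p under 0.05 (limma adjusted p = 0.313).

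Among 18 tested of 19 other uptake and activation genes, 1 was higher and 1 lower at an unadjusted p under 0.05, 0 passed the adjusted threshold, and the median was -0.27. Slc27a4, a fatty acid transporter, had a log2 difference of 0.41 (limma adjusted p = 0.432). For Acsm1, a medium chain acyl-CoA synthetase, it was -0.85 (limma adjusted p = 0.458), and with the replicate block it was no longer at an unadjusted p under 0.05 (limma adjusted p = 0.311). With the block 2 of the 18 were higher and 3 lower at that p (10.1 and 6.07% of all tested genes).

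Among 25 partners and coregulators of PPARA, 3 were higher and 1 lower at an unadjusted p under 0.05, 0 passed the adjusted threshold, and the median was 0.06. Pparg, the related receptor, stood at 10.5, 12.97 and 11.7 FPKM in the knockout livers, against 5.42, 6.85 and 4.13 FPKM in the controls, with every knockout liver above every control. Its log2 difference was 0.99 (limma adjusted p = 0.246), and for Cebpb, a transcription factor, it was 0.63 (limma adjusted p = 0.438). Knockout liver 1, below or among the controls for 37 of the 39 genes, was here above every control.

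PPARA activity in liver follows feeding, and the sources used here do not give the feeding state or hour of collection of these mice. Of 31 tested genes linked to fasting in either direction, 7 were higher and 1 lower at an unadjusted p under 0.05, and 0 passed the adjusted threshold. Fgf21 was among the 7 higher both here and in the list of other PPARA targets. With the replicate block 7 were lower at that p (6.07% of all tested genes), and Pnpla3, a lipid droplet protein, passed the adjusted threshold as lower (log2 difference -1.94, limma adjusted p = 0.0345). Pnpla3 stood at 11.4, 0.0739 and 0.0981 FPKM in the knockout livers, against 47.2, 3.01 and 3.27 FPKM in the controls. Cdkn1a, a cell cycle inhibitor, stood at 24.4, 24.1 and 14.3 FPKM in the knockout livers, against 3.81, 1.17 and 1.31 FPKM in the controls (log2 difference 2.89, limma adjusted p = 0.166). Srebf1, a lipogenic regulator of the fed state, was named after its values were seen and was the 1 lower gene of this list. Srebf1 stood at 93.0, 5.00 and 9.42 FPKM in the knockout livers, against 93.4, 99.4 and 87.3 FPKM in the controls. Knockout livers 2 and 3 were below every control for Srebf1, and knockout liver 1 was within the control range. Not every gene of the list departed in knockout livers 2 and 3, as both lay within the control range for Me1 and Sds. Me1 stood at 65.4, 64.3 and 43.9 FPKM in the knockout livers, against 124, 41.9 and 57.3 FPKM in the controls. Over the 31 genes the log2 difference was above 0 for 18 and below 0 for 13. Whether feeding had a part in the levels of the 39 genes was not tested.

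The label of liver was checked on 20 hepatocyte markers, of which 18 were tested and Alb was listed at 0 in every library. Their summed level was 42823, 58544 and 54107 FPKM in the knockout livers, against 56368, 75803 and 52432 FPKM in the controls. Of the 18, 5 were lower (3.59% of all tested genes) and 0 higher (6.34%) at an unadjusted p under 0.05. In all knockout livers 8 were below every control (5.56% of all tested genes) and 1 was above (10.7%). The 1 above was Hpx, and the log2 difference was above 0 for 5 of the 18 and below 0 for 13. In whole liver, fewer hepatocytes, less RNA per hepatocyte and lower levels of only some hepatocyte genes cannot be told apart. The summed stellate markers (11 genes) were 93.6 to 223 FPKM in the knockout livers and 99.7 to 156 FPKM in the controls. Cholangiocyte markers (8 genes) summed to 21.9 to 154 FPKM in the knockout livers and 35.4 to 67.2 FPKM in the controls. Spp1, which other cells also express, made up 144 of the 154 FPKM of knockout liver 1, where Krt19, Krt7, Epcam and Cftr were below every control. Lymphocyte markers (8 genes in the table) summed to 2.67 to 9.05 FPKM in the knockout livers and 1.27 to 5.24 FPKM in the controls. Adipocyte markers (11 genes) summed to 1287 to 2856 FPKM in the knockout livers and 1081 to 2046 FPKM in the controls. These sums were mostly carried by Car3 and Pck1, which hepatocytes express. Of the 4 tested, 2 were higher (Plin4 and Pck1) and 1 lower (Car3) at an unadjusted p under 0.05. Plin4 was above every control in every knockout liver (log2 difference 1.85, limma adjusted p = 0.392). Cidea was above 0 in every knockout liver and at 0 in every control. Lep, Plin1, Cfd and Ucp1 were listed at 0 in every library, but so was Alb, so a listed 0 does not show absence. Knockout liver 1 was highest of all 6 livers in the neutrophil, macrophage, stellate and lymphocyte sums and lowest in the hepatocyte sum. The part of these cells in its lower oxidation genes was not tested.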

How the data were processed

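The authors deposited FPKM values for 24341 gene symbols, 1 column per liver library. The table names no unit, so it was read from the values themselves. Per the labels' protocols, poly(A) RNA was made into strand-preserving libraries and read as single ends of 75 bases. The submitters' processing notes name mm10, STAR and DESeq2, without roles or versions in the sources used here, which also do not say how reads matching several genes were counted. FPKM is scaled to the library total, so an abundant gene lowers all others. No 2 libraries held identical values.

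The genes and lists were chosen with earlier results of these data known. A count test had been planned first. The table held FPKM, so limma 3.58.1 (R 4.3.3) with an intensity trend was used on log2(FPKM + 1), for genes that reached 1 FPKM in 3 or more libraries, with Benjamini-Hochberg adjustment. The procedure was tested on simulated data. Statistics are given for genes at an unadjusted p under 0.05 and, per role, for the gene of largest difference and the most abundant. From each other list the 2 largest differences among genes at an unadjusted p under 0.05 are given. Others were chosen after their values were seen. Of the low values, 61.8 to 65.5% were within 0.05 of a whole number of reads, and 1 read on a transcript of 2 kilobases was worth 0.0315 to 0.0376 FPKM. Gene positions and shared windows came from GENCODE vM21 (GRCm38).

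Deviations of same-numbered knockout and control livers from their group means correlated at 0.477, 0.279 and 0.283 over the tested genes. Livers of different numbers gave -0.384 to 0.12. The replicate number was therefore also tried as a block, but this pairing was read from the same data and is not established. The labels do not say what a number stands for. The fit without this block is the one reported, and 12 alternatives were run.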

Additional observations from a re-analysis of the deposited data

How the results depend on the processing

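Under each of 12 alternatives, at least 36 of the 39 genes kept the sign of their difference (38 of 38 tested at 5 FPKM). The log2 difference with sample quality weights was -0.022 for Prkci, 0.19 for Ppara, 0.40 for Fabp1 and 0.15 for Etfa, each of the other sign. Weights called 311 genes higher and 226 lower, with 15 of the set among the higher, and gave a median of -0.068 for other uptake genes. At an unadjusted p under 0.05, 33 of the set and 1515 of all 10963 tested genes were then higher. With the replicate block, 13 genes of the set were higher at an unadjusted p under 0.05, Bdh2 and Acsm1 no longer met that p, and 1 listed gene, Pnpla3, passed the adjusted threshold. At 5 FPKM, 1 gene was called lower, 1 of the set was lower without overlap, and the median of PPARA partners was 0.13. Quantile normalization left 0 of the set lower without overlap and gave partners a median of 0.0031, with the median of all genes at -0.0068 (0.04 as reported).

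Leaving out 1 liver at a time gave 0 to 73 genes called higher and 0 to 74 lower, with 0 to 7 of the set called higher. At an unadjusted p under 0.05, 1 to 32 of the set were higher and 0 to 1 lower. Over all tested genes 437 to 913 were higher and 208 to 995 lower at that p. Of the set, 2 to 34 were higher without overlap. Knockout livers 2 and 3 were both above every control for 18.3% of all tested genes. The medians ran from -0.29 to -0.077 for other uptake genes, from 0.60 to 1.49 for other PPARA targets and from -0.0033 to 0.10 for partners. The log2 difference ran from -0.26 to 0.29 for Ppara, -0.27 to 0.37 for Fabp1, -0.081 to 0.74 for Acsl1, -0.20 to 0.066 for Etfa and -0.14 to 0.68 for Acat1. The cause of these shifts was not tested beyond the livers left out. With 3 livers a group, the precision of each difference is limited by its SE.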
